A study of Homo sapiens with 15 samples.

Results

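CEACAM1, CEACAM5, CEACAM6 and CEACAM7 are the members of the carcinoembryonic antigen family followed here. They were picked by name, as 4 of the 60671 genes of the count table, and all 4 were found by their Ensembl identifiers. The cells were HT115, an established line from a human colorectal cancer, and carried a doxycycline-inducible gene, and RNA selected for poly(A) tails was sequenced in 5 groups of 3 libraries. The induced product was the SOX9 mutant M228, the SOX9 mutant M303, the SOX9 mutant M379, V5-tagged wild-type SOX9 (SOX9_WT) or, in the control, GFP. All 5 groups, the GFP control included, received 0.5 µg/ml doxycycline for 24 h, so no library shows the cells without the drug. M303 is described by the series text as a truncated SOX9, while the sources used here do not say what M228 and M379 stand for. All groups are 1 cell line. Separate cultures are not stated for replicates, so p-values measure the spread between libraries alone, and part of that spread may be technical.

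The carcinoembryonic antigen family are cell surface glycoproteins of the immunoglobulin superfamily that bind each other between neighbouring cells. CEACAM5, the carcinoembryonic antigen used as a blood marker of colorectal cancer, CEACAM6 and CEACAM7 are held in the membrane by a glycosylphosphatidylinositol (GPI) anchor. CEACAM1 instead spans the membrane, and its long cytoplasmic tail carries inhibitory motifs that recruit the phosphatases SHP-1 and SHP-2. In the normal colon all of them are made mainly by mature cells of the upper crypt and surface, and in colorectal cancer CEACAM5 and CEACAM6 are typically high while CEACAM7 is typically lost. SOX9 is a transcription factor of the crypt base, and published work on other colon cancer lines has linked it both to CEACAM1 and to CEACAM5, which is the question that the comparisons below bear on.

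The 4 genes lie on chromosome 19 in the GRCh38 build, with coordinates of the Ensembl 101 annotation used for counting. CEACAM7 (ENSG00000007306) spans 41673303 to 41706976 on the minus strand. CEACAM5 (ENSG00000105388) spans 41708585 to 41730433 on the plus strand, with 1608 bases between the annotated spans. CEACAM6 (ENSG00000086548) follows at 41750977 to 41772211 on the plus strand, and CEACAM1 (ENSG00000079385) stands apart at 42507304 to 42561234 on the minus strand, 735092 bases beyond CEACAM6. Reads were counted over exons without regard to strand. Of the exon bases, 3.49% in CEACAM5 and 4.67% in CEACAM6 overlap another annotated gene on the same strand, and 3.37% in CEACAM1 overlap LIPE-AS1 or CEACAMP2 on the opposite strand. In the GENCODE 29 transcripts 10.7% of the 150-base stretches of CEACAM5, each the length of 1 read, and 0.0344% of those of CEACAM6 also occur in ENSG00000267881, a gene that overlaps both, and none occurs in a gene that does not overlap. Of 50-base stretches, 3.29% in CEACAM1, 16.3% in CEACAM5, 6.99% in CEACAM6 and 0% in CEACAM7 occur in another gene. Outside overlapping genes 3.29% in CEACAM1, 2.7% in CEACAM5 and 4.06% in CEACAM6 do so. Part of the reads of CEACAM1, CEACAM5 and CEACAM6 could therefore be ambiguous, although at 150 bases CEACAM1 shared 0%.

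The 250 bases before each RefSeq gene start are shown because the induced factor is a DNA-binding protein and because the members' promoters are close relatives that nevertheless differ in short motifs. They are taken from RefSeq on GRCh38.p14 and read 5′ to 3′ in the direction of the gene, and capitals mark matches to ACAAT or ACAAAG (the core bound by SOX proteins and a variant of it) or CACGTG (the E-box bound by USF factors).
CEACAM5, chr19:41708376-41708625, plus strand: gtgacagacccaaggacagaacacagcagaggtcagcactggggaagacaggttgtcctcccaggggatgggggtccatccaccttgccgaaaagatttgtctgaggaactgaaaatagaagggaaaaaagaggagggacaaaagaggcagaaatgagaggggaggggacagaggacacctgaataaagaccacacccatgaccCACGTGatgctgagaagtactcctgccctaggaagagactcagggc
CEACAM6, chr19:41755280-41755529, plus strand: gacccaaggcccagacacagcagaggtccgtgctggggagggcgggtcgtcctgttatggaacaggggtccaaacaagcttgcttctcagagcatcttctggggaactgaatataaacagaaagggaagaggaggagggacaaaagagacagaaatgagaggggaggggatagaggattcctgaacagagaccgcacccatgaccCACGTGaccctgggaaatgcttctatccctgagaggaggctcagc
CEACAM7, chr19:41688271-41688520, minus strand: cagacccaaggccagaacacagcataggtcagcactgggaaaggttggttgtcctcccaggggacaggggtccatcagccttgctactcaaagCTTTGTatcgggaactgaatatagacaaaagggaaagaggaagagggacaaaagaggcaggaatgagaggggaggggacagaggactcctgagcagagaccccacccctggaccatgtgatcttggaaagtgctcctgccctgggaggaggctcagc
CEACAM1, chr19:42528482-42528731, minus strand: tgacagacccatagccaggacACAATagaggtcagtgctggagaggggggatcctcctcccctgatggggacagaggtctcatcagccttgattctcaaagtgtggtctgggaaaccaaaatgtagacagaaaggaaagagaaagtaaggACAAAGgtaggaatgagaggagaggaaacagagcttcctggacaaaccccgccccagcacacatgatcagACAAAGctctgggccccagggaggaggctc

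Over the aligned bases of these windows, gaps left out, CEACAM5 and CEACAM7 were most alike at 84.4% identity, CEACAM6 shared 80.2% with CEACAM7 and 78.5% with CEACAM5, and CEACAM1 shared 72% to 75.8% with the other three. Both strands were searched, with 2 further motifs without capitals, GGGCGG (the GC box of SP1) and TTTAT (a CDX core), and no matches overlapped. Positions count from the RefSeq gene start and give the first base of the match. The windows of CEACAM1, CEACAM6 and CEACAM7 lie inside the Ensembl spans given above. Distances between those spans are therefore not distances between these starts. CEACAM1 held ACAAT at position -229, ACAAAG at positions -100 and -30 and, on the opposite strand, GGGCGG at position -52. CEACAM5 held CACGTG at position -46 and, on the opposite strand, TTTAT at position -67. CEACAM6 held CACGTG at position -45, GGGCGG at position -211 and, on the opposite strand, TTTAT at position -138. CEACAM7 held ACAAAG alone, on the opposite strand at position -157. Among 35116 RefSeq windows of the same length, 24.6% held ACAAT, 13.7% ACAAAG, 6.34% CACGTG, 42.6% GGGCGG and 32.7% TTTAT. These matches describe letters only, and no binding was measured in these libraries.

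Library totals ranged from 3054755 reads in GFP replicate 1 to 31704249 reads in M303 replicate 1, and levels are given in CPM, read counts scaled for library depth, after TMM normalisation. SOX9 itself was measured at 1900, 2032 and 2383 CPM in M228 replicates 1, 2 and 3, at 2949, 3037 and 3039 CPM in M303, at 2034, 2329 and 2282 CPM in M379, at 243, 210 and 186 CPM in SOX9_WT, and at 97.6, 101 and 158 CPM in GFP. The mutant groups thus held 9.88 to 14.1 times the SOX9 level of SOX9_WT, and SOX9_WT exceeded GFP by a log2 fold change of 0.84 ± 0.18 (SE) without passing the test (edgeR adjusted p = 0.110). Without GFP replicate 3 that difference was 1.10 and passed (edgeR adjusted p = 0.0183), and DESeq2 called it on all libraries (DESeq2 adjusted p = 0.00263). Of 6 fits with a library left out, 1 passed, with log2 fold changes of 0.72 to 1.10 and edgeR adjusted p up to 0.511. Of 6 other settings 3 called it, DESeq2 among them, and the edgeR adjusted p reached 0.855. Reads of the induced gene and of the cells' own SOX9 were not separated. All 10 colorectal epithelial markers were detected in every group, with summed levels of 11150 to 25700 CPM across libraries. The 7 leukocyte markers summed to 0.304 to 2.17 CPM with CD3E at 0, and the 5 stromal markers to 2.43 to 5.54 CPM. GFP libraries were the most scattered, with a median dispersion over genes, the squared variation between replicates beyond counting error, of 0.0976 against 0.0104 to 0.0233 in the other groups.

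CEACAM5 and CEACAM6 made up nearly all of the family signal, and CEACAM1 and CEACAM7 were far below them. Per kilobase of exon, the scale on which genes can be set side by side, CEACAM5 averaged 134 CPM per kb over the 15 libraries, CEACAM6 82.6, CEACAM1 1.79 and CEACAM7 0.115. CEACAM5 alone supplied 60.6% ± 7.95 of the summed CPM per kb in M228, 62.3% ± 6.49 in M303, 63.7% ± 6.50 in M379, 65.2% ± 8.36 in SOX9_WT and 57.1% ± 9.62 in GFP (SD, n = 3 each). CEACAM5 stood above CEACAM6, CEACAM6 above CEACAM1 and CEACAM1 above CEACAM7 in every library. Together the 4 genes summed to 230.0 to 300.1 CPM per kb in M228, 162 to 194 in M303, 152 to 199 in M379, 217 to 328 in SOX9_WT and 172 to 229.6 in GFP. SOX9_WT overlapped GFP on this scale, as did M303 and M379. A lower level in a library of mixed cells can mean fewer cells that express a gene or less RNA per cell, which cannot be told apart here.

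**Figure D1:**
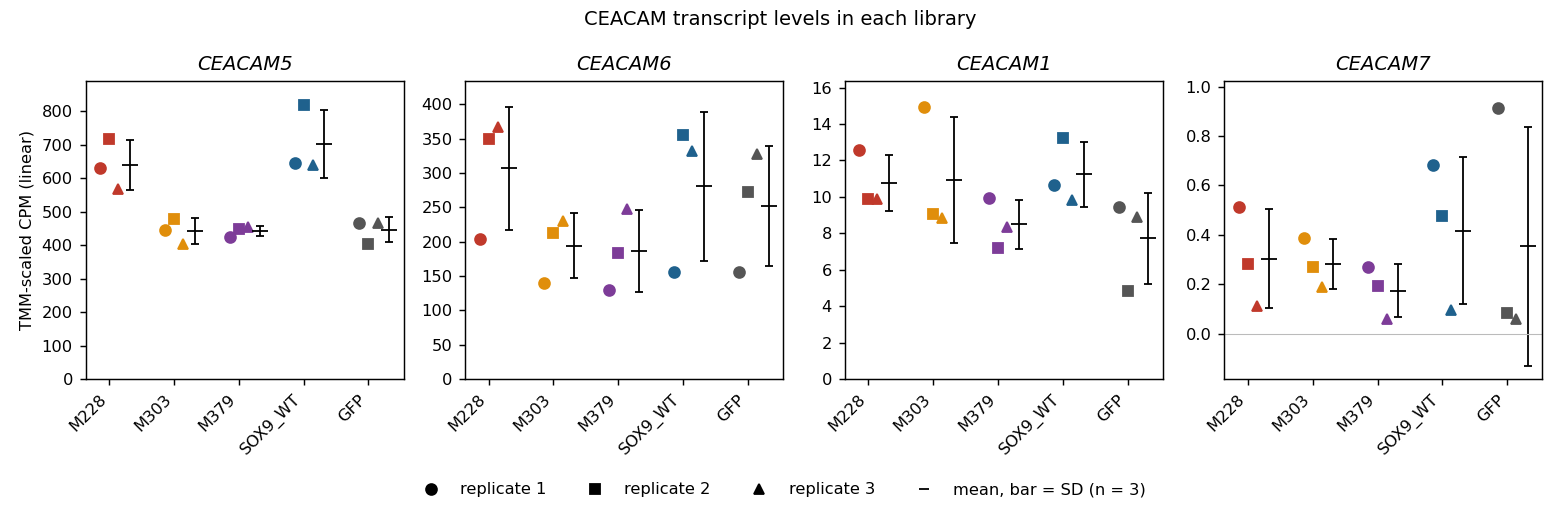
Levels of CEACAM5, CEACAM6, CEACAM1 and CEACAM7 in each of the 15 libraries, in TMM-scaled CPM on linear axes with a scale for each gene. Symbols are replicates and bars are the mean ± SD (n = 3). CEACAM5 sits between 567 and 819 CPM in M228 and SOX9_WT and between 403 and 478 CPM in M303, M379 and GFP.

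CEACAM5 was high with wild-type SOX9 and with M228, and at the control level with M303 and M379. It stood at 632, 718 and 567 CPM in M228 replicates 1, 2 and 3, at 447, 478 and 403 CPM in M303, at 425, 449 and 453 CPM in M379, at 644, 819 and 640 CPM in SOX9_WT, and at 467, 403 and 468 CPM in GFP. Each of the 6 libraries of SOX9_WT and M228 was above all 9 of the other libraries. That split was made after the levels were seen, and how many genes share it was not counted. In order of level, SOX9_WT averaged 701 ± 102 CPM, M228 639 ± 75.6, GFP 446 ± 37.0, M379 443 ± 14.9 and M303 443 ± 38.1 (SD, n = 3 each). SOX9_WT and M228 overlapped as neighbours in that order, as did GFP, M379 and M303, and the only gap was between M228 and GFP.

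The comparison of M303 with SOX9_WT sets a truncated protein against the whole one, and it gave the only member of the family to pass the test. The 2 groups also differed 14.1-fold in SOX9 message, and truncation and amount cannot be told apart. CEACAM5 was lower with M303, at 443 ± 38.1 CPM against 701 ± 102 CPM in SOX9_WT. The log2 fold change was -0.66 ± 0.14 (SE) or 0.631-fold (edgeR adjusted p = 0.047). GFP, at 446 CPM, was level with M303. The groups did not overlap, so CEACAM5 was necessarily lower in each of the 3 pairs of equal replicate number too. So 1 of the 3 members tested was called here, while 0.384% of the 16160 genes tested were called and 18.5% had groups that did not overlap. The call sits at the threshold. Leaving out any 1 of the 3 M303 or 3 SOX9_WT libraries ended it, with log2 fold changes of -0.73 to -0.54 and edgeR adjusted p from 0.0873 to 0.285, and with replicates 2 and 3 alone it was -0.74 (edgeR adjusted p = 0.314).

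M379 gave CEACAM5 a difference from SOX9_WT of the same size without a call. The level was 443 ± 14.9 CPM in M379 and 701 ± 102 CPM in SOX9_WT, and the log2 fold change was -0.66 ± 0.14 (SE, edgeR adjusted p = 0.102). The groups did not overlap, as for 19.2% of all genes tested, and 0 of the 3 members tested were called against 0.124% of all genes. CEACAM5 alone had an unadjusted p under 0.05 there, as did 4.7% of all genes. DESeq2, a second test for counts, called it (DESeq2 adjusted p = 0.000502), among 71 genes over all. Of 6 other settings 4 called it, DESeq2 among them. No fit with a library left out did (edgeR adjusted p from 0.151 to 0.6). CEACAM5 did not distinguish M379 from M303, with a log2 fold change of 0.00 ± 0.13 and a 95% interval of -0.29 to 0.29 (edgeR adjusted p = 1.00). Of the 3 members tested, 0 were called between M379 and M303 by edgeR or DESeq2 and 0 had an unadjusted p under 0.05, in a comparison in which 0% of all genes were called.

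Against GFP, CEACAM5 was 1.57-fold with wild-type SOX9 and 1.43-fold with M228, and neither passed the test. The log2 fold change was 0.52 ± 0.14 for M228 (SE, edgeR adjusted p = 0.166) and 0.65 ± 0.14 for SOX9_WT (edgeR adjusted p = 0.106). In M228 against GFP 0 of the 3 members tested were called, 1 had an unadjusted p under 0.05, as did 9.38% of all genes, and 0.241% of all genes were called. In SOX9_WT against GFP 0 of 3 were called, CEACAM5 and CEACAM1 had an unadjusted p under 0.05, as did 10.7% of all genes, and 0.0309% of all genes were called. DESeq2 called CEACAM5 in both, with an adjusted p of 0.0172 for M228 and 0.00136 for SOX9_WT, among 166 and 67 genes over all. Of 6 other settings, DESeq2 included, 1 called it for M228 and 3 for SOX9_WT. With replicates 2 and 3 alone the edgeR adjusted p was 0.562 for M228 and 0.414 for SOX9_WT. No fit with a library left out called it, with edgeR adjusted p of 0.0953 to 0.552 for M228 and 0.073 to 0.528 for SOX9_WT. The groups did not overlap in either comparison, as for 9.54% of all genes tested with M228 and 11.8% with SOX9_WT.

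With M303 and M379 the level of CEACAM5 was that of GFP to within the error. The log2 fold change from GFP was -0.01 ± 0.13 for each (edgeR adjusted p = 0.991 for M303 and 0.997 for M379), with a 95% interval of -0.30 to 0.28, so a change of the size measured for SOX9_WT lies outside it. In each of these comparisons 0 of the 3 members tested were called by edgeR or DESeq2 and 0 had an unadjusted p under 0.05, where 0.118% of all genes were called with M303 and 0.0371% with M379. These 4 comparisons share the GFP libraries, and the 3 with SOX9_WT share that group, so their values are not independent of each other.

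M228 was not told apart from SOX9_WT by any member. For CEACAM5 the log2 fold change of M228 against SOX9_WT was -0.13 ± 0.13 with a 95% interval of -0.42 to 0.15 (edgeR adjusted p = 1.00). There 0 of 3 members were called by edgeR or DESeq2, 0 had an unadjusted p under 0.05, and 0.569% of all genes were called. Between mutants, CEACAM5 was lower in M303 and in M379 than in M228, each by a log2 fold change of -0.53 (SE 0.13 and 0.14) and without overlap of the groups, as for 8.74% and 11.5% of all genes tested. Neither passed the test (edgeR adjusted p = 0.778 for M303 and 0.571 for M379). In these comparisons 0 of 3 members were called and 1, CEACAM5, had an unadjusted p under 0.05, as did 2.66% of all genes with M303 and 3.47% with M379, where 0.0124% of all genes were called with M303 and 0.0433% with M379. DESeq2 called CEACAM5 in M379 against M228 (DESeq2 adjusted p = 0.0495), among 23 genes over all. It called no member in M303 against M228, where it called 11 genes over all.

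**Figure D2:**
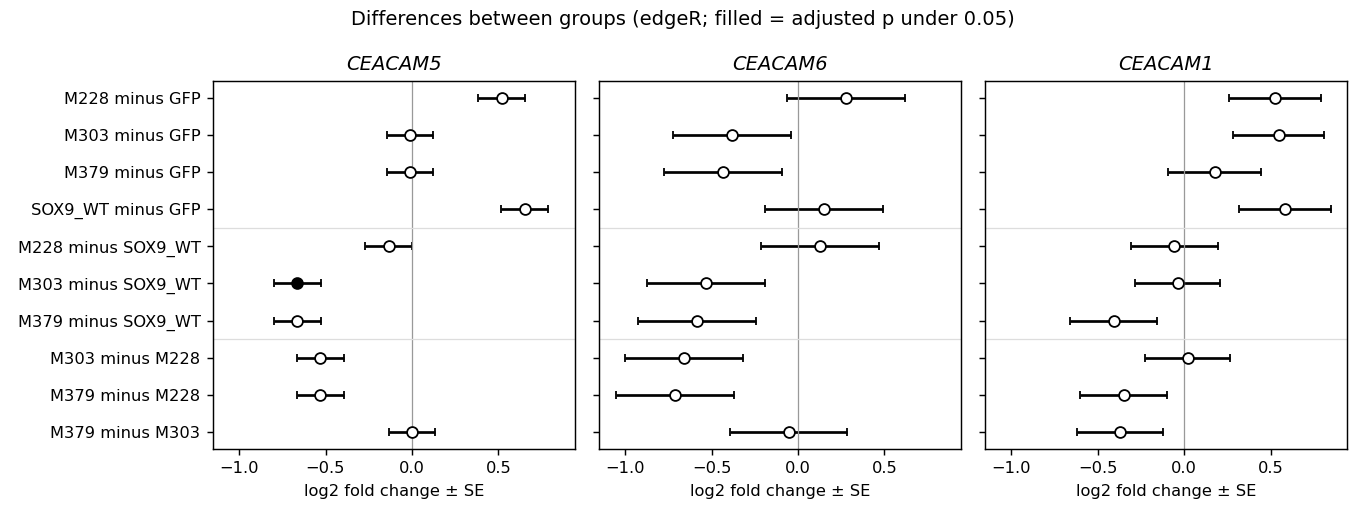
Log2 fold changes of CEACAM5, CEACAM6 and CEACAM1 in the 10 comparisons between groups, from 1 edgeR fit to all 15 libraries. Points are estimates, bars are 1 SE and the filled point is the one with an adjusted p under 0.05. The filled point is CEACAM5 in M303 minus SOX9_WT at -0.66, and the open point of M379 minus SOX9_WT lies at the same value.

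CEACAM6, which lies next to CEACAM5 and is GPI-anchored like it, was lowest with M303 and M379 too, but its replicates were far apart and no difference passed the test. It stood at 204, 349 and 367 CPM in M228 replicates 1, 2 and 3, at 141, 212 and 230 CPM in M303, at 129, 183 and 248 CPM in M379, at 156, 355 and 331 CPM in SOX9_WT, and at 155, 273 and 327 CPM in GFP. Replicate 1 was the lowest library in each of the 5 groups, and every pair of groups overlapped. In order of level, M228 averaged 307 ± 89.2 CPM, SOX9_WT 281 ± 109, GFP 252 ± 87.8, M303 194 ± 47.2 and M379 187 ± 59.6 (SD, n = 3 each), and no neighbours in that order differed beyond their spread.

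The largest difference of CEACAM6 was between M379 and M228, with a log2 fold change of -0.71 ± 0.34 (SE, edgeR adjusted p = 1.00). Equal replicate numbers deviated together in this comparison, and with the replicate number as a block the same difference was -0.71 ± 0.12 and passed the test (edgeR adjusted p = 0.0425). CEACAM6 was lower in M379 than in M228 in each of the 3 pairs of equal number, and likewise in M303 than in M228, where the block gave -0.64 ± 0.12 (edgeR adjusted p = 0.085). Against SOX9_WT the log2 fold change was -0.53 ± 0.34 for M303 (edgeR adjusted p = 1.00) and -0.59 ± 0.34 for M379 (edgeR adjusted p = 0.979), with 3 of 3 pairs lower in each. Against GFP it was 0.28 ± 0.34 for M228, -0.38 ± 0.34 for M303, -0.43 ± 0.34 for M379 and 0.15 ± 0.34 for SOX9_WT, with edgeR adjusted p from 0.797 to 0.879. Leaving out 1 library gave values from 0.0299 to 0.513 for M228, from -0.634 to -0.147 for M303, from -0.699 to -0.2 for M379 and from -0.0959 to 0.444 for SOX9_WT. All 3 pairs with GFP were higher for M228 and for SOX9_WT and lower for M303 and for M379. By the rule given under processing, the numbers did not pair libraries in SOX9_WT against GFP or in M379 against SOX9_WT. Pairs in those comparisons therefore carry no weight. How many of all genes had 3 of 3 pairs in the same direction was not counted.

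The spread of CEACAM6 followed the replicate number. With all groups in 1 model, replicate 1 was below the mean of replicates 2 and 3 by a log2 difference of -0.85 ± 0.09 (SE, edgeR adjusted p = 9.94e-05), in a comparison chosen after the data were seen in which 17.7% of all genes tested were called. Over the same libraries the difference was -0.03 ± 0.08 for CEACAM5 (edgeR adjusted p = 0.827) and 0.36 ± 0.14 for CEACAM1 (edgeR adjusted p = 0.100), which was highest in replicate 1 in 4 of the 5 groups. The labels do not say what a replicate number stands for, and its part in the group differences beyond the block was not tested.

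The balance of CEACAM6 to CEACAM5, as a ratio of CPM per kb, was spread widely within each group. It ran from 0.436 to 0.873 in M228, from 0.425 to 0.770 in M303, from 0.410 to 0.740 in M379, from 0.327 to 0.698 in SOX9_WT and from 0.449 to 0.944 in GFP. Means were 0.655 ± 0.218 in M228, 0.598 ± 0.172 in M303, 0.567 ± 0.165 in M379, 0.537 ± 0.190 in SOX9_WT and 0.768 ± 0.277 in GFP (SD, n = 3 each). All groups overlapped, and no library held as much CEACAM6 as CEACAM5 on this scale.

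**Figure D3:**
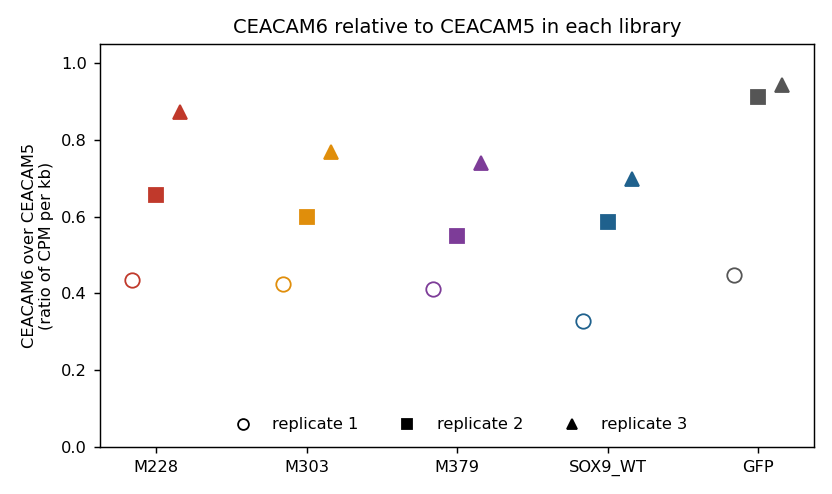
Ratio of CEACAM6 to CEACAM5, each in CPM per kb of exon, in the 15 libraries on a linear axis from 0. Open circles are replicate 1, squares replicate 2 and triangles replicate 3. Replicate 1 is the lowest point of every group, between 0.327 and 0.449, and all groups overlap.

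CEACAM7, a GPI-anchored member typical of normal colon, was close to the limit of detection. It had 8, 2 and 2 reads in M228 replicates 1, 2 and 3, 13, 7 and 4 reads in M303, 4, 3 and 1 reads in M379, 14, 7 and 1 reads in SOX9_WT, and 3, 1 and 1 reads in GFP. These counts correspond to 0.0594 to 0.912 CPM, and 3 reads, the upper limit that a count of 0 allows, amount to 0.0896 CPM in M303 replicate 1 and 0.912 CPM in GFP replicate 1. This limit covers counting error only. All groups overlapped. CEACAM7 was the 1 member of 4 that failed the filter on low counts, so it has no test and no fold change is given. Without that filter it was tested, and the lowest edgeR adjusted p of the 10 comparisons was 0.606.

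CEACAM1, the member with a signalling tail, was low and gave no call. It stood at 12.6, 9.89 and 9.89 CPM in M228 replicates 1, 2 and 3, at 14.9, 9.05 and 8.82 CPM in M303, at 9.93, 7.21 and 8.32 CPM in M379, at 10.7, 13.2 and 9.84 CPM in SOX9_WT, and at 9.43, 4.86 and 8.87 CPM in GFP. These levels rest on 31 to 500 reads per library. In order of level, SOX9_WT averaged 11.2 ± 1.77 CPM, M303 10.9 ± 3.46, M228 10.8 ± 1.54, M379 8.49 ± 1.37 and GFP 7.72 ± 2.49 (SD, n = 3 each), with overlap between every pair of neighbours.

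Every SOX9_WT and every M228 library was above every GFP library for CEACAM1, but only narrowly. GFP replicate 1 had 9.43 CPM from 31 reads, and the lowest libraries were at 9.84 CPM in SOX9_WT and 9.89 CPM in M228. Those gaps are smaller than the counting error of 31 reads. Groups did not overlap for 11.8% of all genes tested with SOX9_WT and for 9.54% with M228. The 95% interval of the log2 fold change from GFP, not adjusted for the number of genes, was 0.02 to 1.15 for SOX9_WT and -0.04 to 1.10 for M228. No difference from GFP passed the test. The log2 fold change from GFP was 0.53 ± 0.27 for M228 (SE, edgeR adjusted p = 0.566), 0.55 ± 0.26 for M303 (edgeR adjusted p = 0.650), 0.18 ± 0.27 for M379 (edgeR adjusted p = 0.945) and 0.58 ± 0.27 for SOX9_WT (edgeR adjusted p = 0.463). Against SOX9_WT it was -0.06 ± 0.25 for M228, -0.04 ± 0.24 for M303 and -0.41 ± 0.25 for M379, with edgeR adjusted p from 0.979 to 1.00. For M303 against SOX9_WT the 95% interval ran from -0.56 to 0.48, and without M303 replicate 1, the highest library at 14.9 CPM, the difference was -0.333, and from GFP 0.254. Whether CEACAM1 and CEACAM5 differ in their response to M303 was not tested. The GFP mean of CEACAM1 leans on replicate 2 at 4.86 CPM, and without that library the log2 fold changes from GFP were 0.255 for M228, 0.274 for M303, -0.0987 for M379 and 0.315 for SOX9_WT.

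Of 18 other genes of the family, CEACAM19 was the only one tested, and the rest were near or at 0. CEACAM19 lay between 4.20 and 7.93 CPM, its log2 fold changes over the 10 comparisons ran from -0.10 to 0.13, and 0 were called or had an unadjusted p under 0.05. Summed over the 15 libraries, CEACAM18 had 83 reads, CEACAM20 56, CEACAM3 34, CEACAM8 30, CEACAM21 18, CEACAM16 11, PSG9 3, PSG5 2, PSG6 1 and PSG8 1. CEACAM3 and CEACAM8 are the granulocyte members of the family, and the PSG genes encode the glycoproteins of the placenta. CEACAM4, PSG1, PSG2, PSG3, PSG4, PSG7 and PSG11 had no read.

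The machinery and partners of the members gave no call in edgeR. Over all genes 0.848% to 10.7% had an unadjusted p under 0.05 in the 10 comparisons, the background for the counts that follow. Of 30 genes that build, attach or trim GPI anchors, 28 were tested and 0 were called in any of the 10 comparisons by edgeR or DESeq2, with at most 1 of 28 at an unadjusted p under 0.05. Their median log2 fold change stayed between -0.02 and 0.02, where the median over all genes was -0.01 to 0.01. Of 14 CEACAM1 partners, among them its phosphatases, cytoskeletal ligands and the receptor INSR, 13 were tested and 0 were called by either tool, with at most 3 at an unadjusted p under 0.05. Of 14 regulators linked to CEACAM promoters, the USF, SP, CDX and SMAD factors among them, all 14 were tested and 0 were called by either tool, with at most 2 at an unadjusted p under 0.05. Of 28 epithelial adhesion genes all were tested and edgeR called 0, with at most 6 at an unadjusted p under 0.05, in M228 against GFP, where 9.38% of all genes were. DESeq2 called 1, the mucin MUC1, lower in M228 than in SOX9_WT, where it called 227 genes over all.

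Among 25 other GPI-anchored surface proteins, 21 were tested and edgeR called CD109 in M303 against SOX9_WT, where 0.384% of all genes were called, and GPC4 in M228 against SOX9_WT, where 0.569% were. DESeq2 also called CD109 higher in M228 and M379 than in SOX9_WT and in all 3 mutants than in GFP, and CD24 higher in M228 than in GFP. Over all genes DESeq2 called 227 in M228 and 71 in M379 against SOX9_WT. Against GFP it called 166 in M228, 89 in M303 and 50 in M379. CD109, a binder of transforming growth factor beta, was higher with M303. It had 11.6, 9.28 and 10.4 CPM in M303 replicates 1, 2 and 3 and 3.75, 2.24 and 2.87 CPM in SOX9_WT. Its log2 fold change was 1.80 ± 0.36 (SE, edgeR adjusted p = 0.0431), opposite in sign to CEACAM5, and leaving out any 1 of the 6 libraries ended the call with edgeR adjusted p from 0.102 to 0.251. GPC4, a cell surface heparan sulphate proteoglycan, was lower with M228, with 16.7, 13.3 and 13.3 CPM in M228 and 31.9, 28.7 and 31.6 CPM in SOX9_WT. Its log2 fold change was -1.09 ± 0.17 (edgeR adjusted p = 0.0074), and the call ended without M228 replicate 2 (edgeR adjusted p = 0.0535) and with replicates 2 and 3 alone (edgeR adjusted p = 0.107). In the comparison of M303 with SOX9_WT the tested genes of this list had a median log2 fold change of 0.09, 14 positive and 7 negative, beside 0.01 for all genes. Against SOX9_WT, M228 and M379 each had 16 positive and 5 negative, with medians of 0.17 and 0.18. At most 7 of 21 had an unadjusted p under 0.05, in M228 against GFP, where 9.38% of all genes did. The median there was 0.18, with 12 positive and 9 negative.

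Colonocyte differentiation genes, which in the normal colon are made by the same mature cells as the members, had more calls. Of 21 listed, 16 were tested. In M303 against SOX9_WT 12 of 16 were negative with a median log2 fold change of -0.31, beside 0.01 for all genes. There edgeR called 1 lower, where 0.384% of all genes were called either way. DESeq2 called 4 lower, where it called 170 genes over all. The 1 called by edgeR was MUC12, a membrane mucin of the surface epithelium, with 54.2, 107 and 66.5 CPM in M303 replicates 1, 2 and 3 and 164, 220 and 149 CPM in SOX9_WT (log2 fold change -1.23 ± 0.23, edgeR adjusted p = 0.0352). That call was kept without M303 replicate 2 and ended without each of the other 5 libraries, with edgeR adjusted p up to 0.188. In M379 against SOX9_WT 12 of 16 were negative with a median of -0.30, and edgeR called 0, with 5 at an unadjusted p under 0.05 beside 4.7% of all genes. DESeq2 called 3 lower there, among 71 genes over all. In SOX9_WT against GFP the median was 0.47 with 10 of 16 positive, and edgeR called 0, with 7 at an unadjusted p under 0.05 beside 10.7% of all genes. DESeq2 called 2 higher there, among 67 genes over all.

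Although CEACAM5 did not separate M228 from SOX9_WT, the mucins MUC12 and MUC17 did, while MUC13 (log2 fold change -0.46, edgeR adjusted p = 0.354) and MUC1 (-0.80, edgeR adjusted p = 0.158) did not pass. In that comparison edgeR called 0.569% of all genes. MUC12 was lower with M228, with 70.3, 61.6 and 59.0 CPM in M228 and 164, 220 and 149 CPM in SOX9_WT (log2 fold change -1.48 ± 0.24, edgeR adjusted p = 0.00914). MUC17, another membrane mucin, was lower with M228 too, with 39.9, 29.5 and 28.3 CPM in M228 and 128, 213 and 122 CPM in SOX9_WT (log2 fold change -2.24 ± 0.44, edgeR adjusted p = 0.0292). The MUC12 call ended without M228 replicate 2, M228 replicate 3 or SOX9_WT replicate 2, with edgeR adjusted p up to 0.0623, and the MUC17 call ended without any 1 of the 6 libraries, with edgeR adjusted p from 0.0601 to 0.182. Against GFP the 1 colonocyte gene that edgeR called with M228, where 0.241% of all genes were called, was CDHR2, a protocadherin of the brush border. It rose to 5.19, 6.21 and 5.09 CPM in M228, against 3.35, 1.96 and 2.08 CPM in GFP (log2 fold change 1.27 ± 0.24, edgeR adjusted p = 0.0404). That call was kept without GFP replicate 1 and ended without each of the other 5 libraries, with edgeR adjusted p up to 0.147. DESeq2 called CDHR2 higher and MUC12 lower in M228 than in GFP, among 166 genes over all. For MUC12 the log2 fold change there was -0.92 and did not pass in edgeR (edgeR adjusted p = 0.15).

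The genes whose levels followed each member most closely were sought among 12548 genes by the Pearson correlation of log2 CPM over the 15 libraries, and since they were picked for the highest value they are a description without a test. CEACAM5 went with KRT20, a keratin of differentiated colonocytes (r = 0.934, Spearman's rho = 0.911), with SERPINB5, a serpin (r = 0.905), and with CA5B, a mitochondrial carbonic anhydrase (r = 0.884). KRT20 averaged 852 ± 216 CPM in M228, 658 ± 67.9 in M303, 641 ± 31.4 in M379, 1098 ± 207 in SOX9_WT and 640 ± 55.6 in GFP (SD, n = 3 each), so like CEACAM5 it was highest with SOX9_WT, then M228. No comparison of KRT20 passed the edgeR test, the nearest being M303 against SOX9_WT at a log2 fold change of -0.74 ± 0.17 (edgeR adjusted p = 0.0905), while DESeq2 called it higher in SOX9_WT than in GFP and lower in M303 and in M379 than in SOX9_WT. Without the 2 most extreme libraries its r was 0.866, and in replicates 2 and 3 alone it was 0.968 over 10 libraries.

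CEACAM6 went with CD55, a GPI-anchored complement inhibitor (r = 0.957, rho = 0.925), with F3, which encodes tissue factor (r = 0.923), and with DUSP4, a phosphatase of MAP kinases (r = 0.881). CD55 averaged 320 ± 36.4 CPM in M228, 237 ± 30.7 in M303, 227 ± 43.9 in M379, 284 ± 60.1 in SOX9_WT and 281 ± 79.1 in GFP (SD, n = 3 each), and its r was 0.935 without the 2 most extreme libraries and 0.936 in replicates 2 and 3. CEACAM1 went with SEPTIN10, a cytoskeletal septin (r = 0.934, rho = 0.900), with BTBD8 (r = 0.926) and with SLFN5 (r = 0.924), and with SEPTIN10 its r was 0.846 without the 2 most extreme libraries. The 3 sets shared no gene, but sets of 3 out of 12548 genes would seldom share one, so this does not set the members apart. The points share groups, replicate numbers and library depth, which were not removed.

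**Figure D4:**
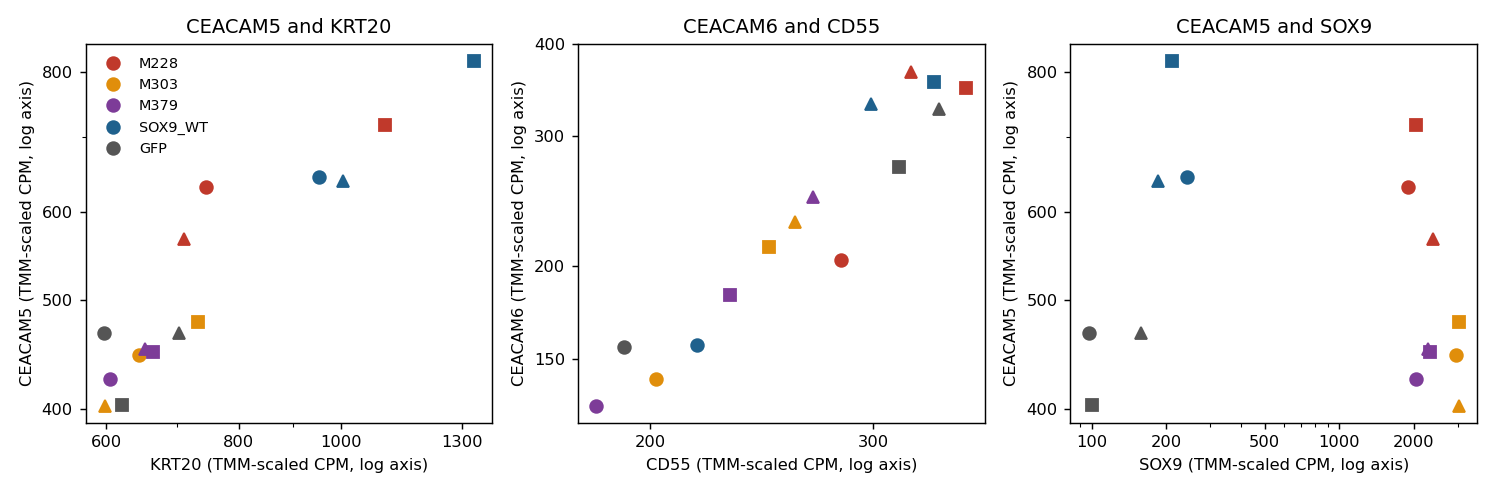
CEACAM5 against KRT20, CEACAM6 against CD55 and CEACAM5 against SOX9 in the 15 libraries, in TMM-scaled CPM on log axes. Colours are groups, and circles, squares and triangles are replicates 1, 2 and 3. CEACAM5 climbs with KRT20 (r = 0.934) and CEACAM6 with CD55 (r = 0.957), while CEACAM5 is high both in SOX9_WT at 186 to 243 CPM of SOX9 and in M228 at 1900 to 2383 CPM.

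Groups were not ordered alike by CEACAM5 and by the amount of SOX9 message. They also differed in the induced product, and product and amount cannot be told apart. M303, with the most SOX9 at 3009 ± 51.6 CPM, and GFP, with the least at 119 ± 33.9 CPM, had CEACAM5 at 443 and 446 CPM, while SOX9_WT at 213 ± 28.6 CPM of SOX9 had the highest mean of CEACAM5 at 701 CPM (SD, n = 3 each).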

How the data were processed

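RNA of 15 libraries (5 groups of 3) was sequenced as 150-base pairs. Per the submitters' processing notes, STAR 2.7.0a placed the reads on hg38. The authors deposited raw read counts per gene, made with featureCounts 2.0.1 on the Ensembl 101 annotation without a strand, pair or multimapping option, per the file headers. A second deposited table of scaled values was not used, and 3 of its columns match no sample label. The series text speaks of 6 experiments with duplicates, while the labels give the 5 groups in triplicate used here.

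After edgeR's filterByExpr, 16160 genes were fitted in 1 model with a mean per group (edgeR 4.0.16 quasi-likelihood test, TMM scaling, R 4.3.3, 10 residual degrees of freedom). All tests are two-sided. Benjamini-Hochberg adjustment ran over all genes within each of 10 comparisons, and genes with an adjusted p below 0.05 are called. CPM values are TMM-scaled, correlations use log2(CPM + 0.5), and intervals are 95%. The fit was tested on simulated data. Alternatives were DESeq2 1.42.0, its size factors, no filter, a replicate block, a fit of the 2 groups alone, replicates 2 and 3 alone and leaving out each library.

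The members, gene lists and motifs were chosen with earlier results of these data known. Named are the 4 members, SOX9, other family genes with reads, called genes of each list (up to 6 per list and comparison) and, per member, the 3 most correlated genes with a symbol and a mean log2 CPM of at least 1. Genes called by DESeq2 are named outside this rule. Whether equal replicate numbers pair libraries was judged by the correlation of their deviations from group means, and all pairs exceeded 0.1 for the mutants against GFP, M303 against SOX9_WT (lowest 0.101) and between mutants. No pair of replicates agreed within sampling noise. RefSeq protein sequences were not used here.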

Additional observations from a re-analysis of the deposited data

How the results depend on the processing

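The 10 counts of called members were recomputed under 6 planned settings and with each library left out, and 102 of 120 stayed as reported. DESeq2 gave 1 call in place of 0 in M228 minus GFP, SOX9_WT minus GFP, M379 minus SOX9_WT and M379 minus M228, each time CEACAM5. Without the filter on low counts the count was 1 in SOX9_WT minus GFP (CEACAM5, edgeR adjusted p = 0.024), 1 in M379 minus SOX9_WT (CEACAM5, edgeR adjusted p = 0.026) and 1 in M379 minus M228 (CEACAM6, edgeR adjusted p = 0.0227). Fitting only the compared groups gave 1 in M379 minus SOX9_WT (CEACAM5, edgeR adjusted p = 0.0143). In M303 minus SOX9_WT the count was 0 with replicates 2 and 3 alone and 0 to 0 when a library was left out, while the other 5 settings kept CEACAM5 (log2 fold change -0.67 to -0.64). For the low counts of CEACAM1 and CEACAM7 depth limits what can be seen, and the causes of these shifts were not tested.

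With the replicate number as a block, CEACAM6 was called in M379 minus M228 (count 1), CEACAM5 stayed called in M303 minus SOX9_WT (-0.66, edgeR adjusted p = 0.00964), and no other member's call changed where the numbers pair the libraries. In 2 comparisons where they did not pair by the rule, the block gave a count of 1 through CEACAM5, in SOX9_WT minus GFP (edgeR adjusted p = 0.0375; correlations -0.03 to 0.136) and in M379 minus SOX9_WT (edgeR adjusted p = 0.0198; 0.0696 to 0.243). There 2 of 3 and 3 of 3 libraries matched their own number best, a hint from the data alone. Over all genes the calls, in the order edgeR as reported, no filter, block, compared groups alone, replicates 2 and 3 alone and DESeq2, numbered 39, 282, 181, 3, 9 and 166 in M228 minus GFP, 19, 212, 85, 2, 4 and 89 in M303 minus GFP, 6, 74, 17, 1, 3 and 50 in M379 minus GFP and 5, 180, 79, 0, 1 and 67 in SOX9_WT minus GFP. They numbered 92, 320, 319, 278, 21 and 227 in M228 minus SOX9_WT, 62, 273, 259, 121, 7 and 170 in M303 minus SOX9_WT and 20, 137, 106, 156, 1 and 71 in M379 minus SOX9_WT. Between mutants they numbered 2, 47, 14, 2, 1 and 11 in M303 minus M228, 7, 48, 25, 7, 1 and 23 in M379 minus M228 and 0, 5, 0, 0, 0 and 0 in M379 minus M303.

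Log2 fold changes close to 0 changed sign. For CEACAM5 this happened in M303 minus GFP (0.023 without the filter, 0.003 with replicates 2 and 3, and -0.084 to 0.0539 over single libraries left out), in M379 minus GFP (0.0377 with replicates 2 and 3, and -0.0828 to 0.0286) and in M379 minus M303 (-0.029 without the filter, and -0.0621 to 0.0607). For CEACAM1 it happened in M303 minus M228 (-0.152 with replicates 2 and 3, and -0.276 to 0.151), M228 minus SOX9_WT (-0.19 to 0.0746), M303 minus SOX9_WT (-0.333 to 0.0942) and M379 minus GFP (-0.0987 to 0.383). For CEACAM6 it happened when libraries were left out in M228 minus SOX9_WT (-0.164 to 0.348), M379 minus M303 (-0.31 to 0.152) and SOX9_WT minus GFP (-0.0959 to 0.444). The same settings run on SOX9 and the called list genes, added after the data were seen, reversed no sign, but replicates 2 and 3 alone ended all 6 calls of list genes (edgeR adjusted p from 0.0607 to 0.348), and the compared groups alone ended CDHR2 in M228 minus GFP (edgeR adjusted p = 0.633) and MUC12 in M303 minus SOX9_WT (edgeR adjusted p = 0.0555).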
